A study of Mus musculus with 4 samples.

Results

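Plasminogen activators and their inhibitors were followed in single-nucleus RNA-seq of the mouse thalamus as 6 genes of the 40091 listed in the deposited tables. Every row whose symbol was Plat, Plau, Plaur, Serpine2, Serpini1 or F3 was taken, and all 6 were found in all 4 libraries. The NS group received saline, and the COL group received Coll IV, a collagenase that breaks down the collagen of vessel walls and causes bleeding, at 0.01 U in 10 nl on the right side in VPM and VPL, sensory relay nuclei of the thalamus. All animals were C57BL6 adults of 7 to 8 weeks, no transgene or deletion is named for either group, and tissue was taken on day 7 after injection. Each group had 2 libraries, and each library pooled the tissue of 3 mice, so the spread between libraries is a spread between pools. The comparison asks how this enzyme system differed after a thalamic haemorrhage, and in which cells.

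Plasmin is a protease that dissolves fibrin clots and cleaves matrix proteins and growth factors. It is made from plasminogen by tissue-type plasminogen activator (Plat, the clot-dissolving drug tPA) and by urokinase (Plau), which works on the cell surface when held by its receptor (Plaur). Serpine2 (protease nexin 1) blocks thrombin, urokinase and tPA, and Serpini1 (neuroserpin) is an inhibitor of tPA best known from neurons. F3 (tissue factor) is the cell-surface starter of blood clotting, and astrocytes are a known source of it in brain.

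The 4 libraries held 32332 barcodes, of which 32291 nuclei had more than 50 genes and under 5% of mitochondrial UMIs (unique molecules counted per gene). The kept UMIs came to between 68723738 and 77546840 per library, and the median per nucleus was 6489 and 4649 UMIs in NS and 8664 and 8691 in COL. Pairs of libraries shared at most 31 barcodes. Nuclei were given a cell type by marker genes, none of which was a member. Clusters were named from the same marker scores, so their match is no independent check. Of the nuclei in the 24 named clusters of 32, 97.7% had the same type by both routes. The share was 75.8% in cluster 9 (myeloid, that is microglia and macrophages) and 77.6% in cluster 13 (oligodendrocyte precursor cells). Neurons numbered 2819 to 5277 per library, oligodendrocytes 1652 to 3611, oligodendrocyte precursor cells (OPCs) 187 to 374 and microglia 313 to 539. Astrocytes made up 12.6% and 10.3% of NS nuclei and 3.03% and 4.23% of COL nuclei. Macrophages were 3 and 6 nuclei in NS and 249 and 352 in COL, too few in NS to give a level. Vascular nuclei (endothelial cells, pericytes, smooth muscle and fibroblasts) numbered 27 to 40 per library and were described without a test.

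In GRCm38 coordinates of the GENCODE M21 annotation, Plat lies on chromosome 8 (22757727 to 22782844, plus strand), Plau on chromosome 14 (20836660 to 20843385, plus strand) and Plaur on chromosome 7 (24462484 to 24475968, plus strand). Serpine2 lies on chromosome 1 (79794197 to 79861180, minus strand), Serpini1 on chromosome 3 (75557547 to 75643495, plus strand) and F3 on chromosome 3 (121723537 to 121735048, plus strand). All 6 are annotated as protein coding. Serpini1 shares 4014 bases with Gm37672 on the same strand, a model with 253 UMIs in all. How reads in overlapping genes were counted is not given in the sources used here, so the Serpini1 count is uncertain by the reads of that overlap.

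RefSeq promoter windows, 250 bases before to 50 bases after the start, were at hand for 4 of the 6 genes, namely Plaur, Serpine2, Serpini1 and F3. The AP-1 motif TGACTCA, searched on both strands, the letters bound by Fos and Jun proteins, occurred 1 time each in the Plaur and F3 windows and in neither of the others. These letters occur in 5.20% of the 32851 windows of this length. The bases before the start of Plaur and F3 are shown because their windows held a match, with the motif in capitals, in F3 as its reverse complement.
Plaur, chr7:24462233-24462482, GRCm38.p6, plus strand: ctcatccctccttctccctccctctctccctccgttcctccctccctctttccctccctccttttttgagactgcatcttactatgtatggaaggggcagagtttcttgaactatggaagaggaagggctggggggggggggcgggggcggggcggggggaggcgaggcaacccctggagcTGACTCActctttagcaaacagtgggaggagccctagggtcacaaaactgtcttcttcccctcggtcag
F3, chr3:121723287-121723536, GRCm38.p6, plus strand: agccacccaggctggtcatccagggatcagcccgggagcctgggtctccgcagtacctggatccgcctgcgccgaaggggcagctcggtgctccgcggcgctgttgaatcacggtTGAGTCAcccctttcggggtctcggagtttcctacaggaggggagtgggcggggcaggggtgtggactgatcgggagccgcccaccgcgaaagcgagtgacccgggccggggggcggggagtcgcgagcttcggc
The GC box GGGCGG, searched on both strands and found in 35.7% of windows, occurred 3 times in the Plaur window, 6 times in Serpine2, 3 times in F3 and not in Serpini1. A match describes the letters and is not a bound site.

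The levels of the members differed by cell type. A level is given as CPM, the UMIs of a gene per 1000000 UMIs of that cell type in a library, as the mean ± SD of the 4 libraries. Types were compared in pairs by edgeR's quasi-likelihood test with the library as a block, differences are on the log2 scale with their SE, and a call is an adjusted p below 0.05. A gene low in most types enters such a test through the type where it is high, so no count of calls is given. Of all genes tested, 68.5% were called between oligodendrocytes and neurons, 42.6% between OPCs and neurons, 52.7% between astrocytes and neurons and 55.8% between microglia and neurons. The share was 46.8% for OPCs, 48.1% for astrocytes and 44.6% for microglia against oligodendrocytes, 40.8% for astrocytes and 49.5% for microglia against OPCs, and 48.9% for microglia against astrocytes.

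**Figure D1:**
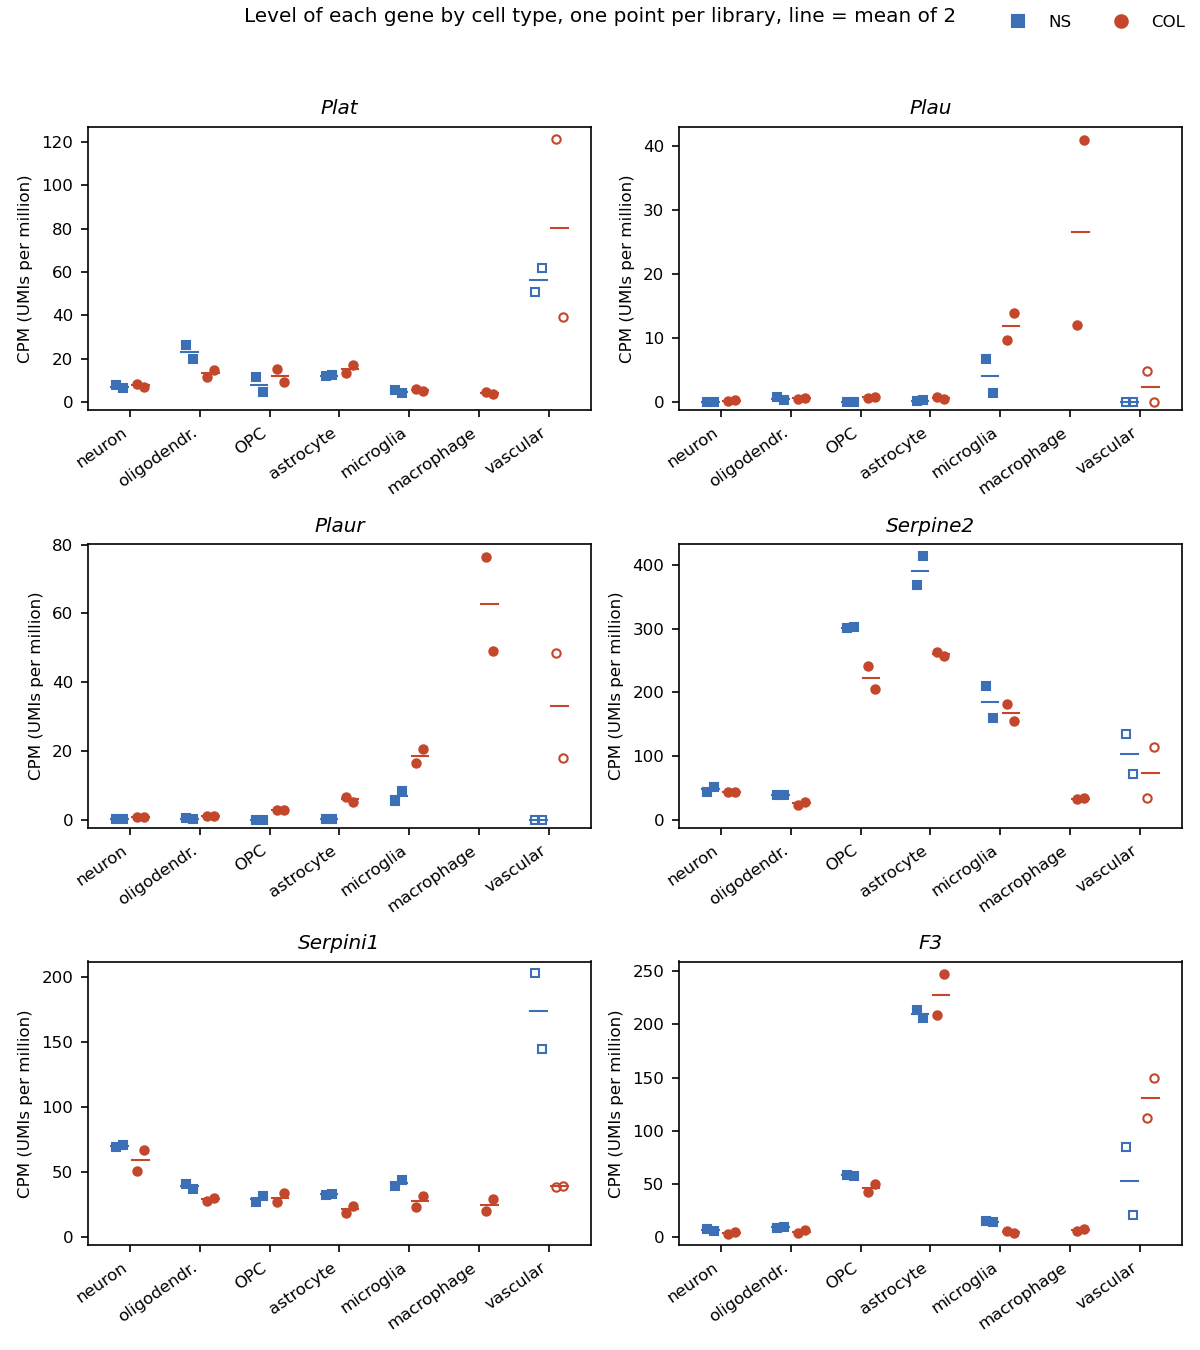
CPM of each member by cell type (x axis), with one point per library (squares NS, circles COL) and a line at the mean of the 2 libraries of a group, on a linear y axis that differs between panels. NS macrophages are not drawn, and open symbols mark the vascular nuclei. Outside the vascular nuclei, Plau and Plaur were high in microglia and COL macrophages, and Serpini1 in neurons. Serpine2 was high in astrocytes, OPCs and microglia, and F3 in astrocytes and OPCs. Vascular nuclei had means of 91.5 CPM of F3 and 106 CPM of Serpini1, from 72 and 45 UMIs, and 33.1 CPM of Plaur in COL.

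Plat, the gene of tPA, had 18.2 ± 6.46 CPM (SD, n = 4) in oligodendrocytes, the highest mean over the 4 libraries among the 5 tested types. Astrocytes had 13.7 ± 2.34 CPM, OPCs 10.2 ± 4.50 CPM, neurons 7.38 ± 0.973 CPM and microglia 5.16 ± 0.830 CPM. Oligodendrocytes exceeded neurons by 1.30 ± 0.24 (edgeR adjusted p = 0.00148), and microglia lay below oligodendrocytes (-1.94 ± 0.26, adjusted p = 0.000243). Astrocytes lay below oligodendrocytes over the 4 libraries (-0.58 ± 0.22, adjusted p = 0.0494), a call lost with plain library totals (0.0889), without NS replicate 1 (0.385) and without NS replicate 2 (0.180). The order held for the NS libraries, with 26.3 and 19.9 CPM in oligodendrocytes and a mean of 12.1 ± 0.219 CPM (SD, n = 2) in astrocytes, and not for the COL libraries, with 11.5 and 14.9 CPM in oligodendrocytes and 13.4 and 17.1 CPM in astrocytes. With clusters in place of the gate it held in COL too, with 11.2 and 14.7 CPM in oligodendrocytes and 6.50 and 8.66 CPM in astrocytes. Of the Plat UMIs in COL astrocytes by the gate, 31 lay in the 75 nuclei outside the astrocyte clusters and 19 in the 370 inside them. The difference between OPCs and neurons was not called (0.37 ± 0.22, adjusted p = 0.20), and was called with clusters (0.00465). Neurons, the most numerous nuclei, held 57.2% of the 2689 Plat UMIs. The vascular nuclei had 68.2 ± 36.5 CPM from 45 UMIs.

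Plau and Plaur, urokinase and its receptor, had most of their UMIs in myeloid nuclei, which are microglia, macrophages and a few nuclei typed as neither. Myeloid nuclei held 67.3% of the 226 Plau UMIs and 60.0% of the 460 Plaur UMIs, shares that pool both groups and do not describe NS alone. Of the NS UMIs of Plau and Plaur, microglia held 6 and 10, macrophages 0 and 0, neurons 5 and 17 and oligodendrocytes 9 and 5. In microglia Plau was 5.61 ± 0.48 above neurons (edgeR adjusted p = 1.22e-06), and Plaur was 4.67 ± 0.39 above neurons (adjusted p = 9.84e-07) and 3.88 ± 0.33 above oligodendrocytes (adjusted p = 1.20e-05). COL macrophages had 12.1 and 41.0 CPM of Plau and 76.3 and 49.1 CPM of Plaur. A UMI of Plaur was found in 117 of 601 COL macrophages, a UMI of Plau in 31, and both in 3. In COL microglia 56 of 894 nuclei held Plaur, 29 held Plau and 8 held both.

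Serpine2 was highest in astrocytes, where its level was 326 ± 77.7 CPM. OPCs followed with 263 ± 47.9 CPM and microglia with 177 ± 25.6 CPM, while neurons had 45.4 ± 4.18 CPM and oligodendrocytes 32.0 ± 8.01 CPM. Astrocytes were 2.77 ± 0.12 above neurons (edgeR adjusted p = 1.81e-09) and microglia 1.68 ± 0.14 above neurons (adjusted p = 1.04e-06). The step from OPCs to astrocytes was small (0.32 ± 0.0950, adjusted p = 0.0184), and of 8 alternatives it lost its call without NS replicate 1 (0.0972), without NS replicate 2 (0.0943), without COL replicate 2 (0.0684) and in nuclei thinned to 2000 UMIs (0.205). COL macrophages had 32.1 and 34.0 CPM, against 182 and 155 CPM in microglia of the same libraries.

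Serpini1 was higher in neurons, with 64.6 ± 9.07 CPM, than in the 4 glial types. Neurons held 83.5% of its 16043 UMIs. They also held 108699402 NS and 98652470 COL UMIs of the 285255179 kept for all genes, so this share partly reflects their number and depth. The vascular nuclei, not tested, had 106 ± 81.3 CPM from 45 UMIs. Their mean was above that of neurons in NS (174 against 70.0 CPM) and below it in COL (39.0 against 59.1 CPM). GABA neurons had 75.9 ± 7.04 CPM and glutamatergic neurons 51.8 ± 9.72 CPM. The 4 glial types lay between 27.1 CPM in astrocytes and 34.5 CPM in microglia, with log2 differences from neurons of -1.27 to -0.89 and edgeR adjusted p of 4.88e-05 or smaller. Among the glial pairs, astrocytes against oligodendrocytes was called (-0.38 ± 0.11, adjusted p = 0.0150), a call lost without NS replicate 1 (0.0556) and in nuclei thinned to 2000 UMIs (0.179). A UMI of Serpini1 was present in 42.9% of neurons, whose median depth was 11194 UMIs, and in 12.4% of oligodendrocytes, whose median was 3806. After thinning each nucleus to 1000 UMIs the shares were 6.20% (95% exact binomial interval 5.83 to 6.59) and 3.22% (2.86 to 3.6). Thinning left out 162 NS and 7 COL nuclei of all types, and the intervals cover counting error only.

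Among the 5 tested types F3 was highest in astrocytes, which had 219 ± 19.0 CPM and held 54.2% of its 4760 UMIs over both groups. OPCs had 51.9 ± 7.61 CPM, and neurons, oligodendrocytes and microglia had 5.20 to 9.58 CPM. Astrocytes exceeded OPCs by 2.09 ± 0.12 (edgeR adjusted p = 1.24e-07) and neurons by 5.37 ± 0.18 (adjusted p = 1.89e-10). Microglia and oligodendrocytes could not be ordered (-0.0534 ± 0.29, adjusted p = 0.915), and the sign turned in 4 of the alternatives. In nuclei thinned to 1000 UMIs, 19.1% of astrocytes held a UMI of F3, against 0.681% of neurons. The vascular nuclei had 91.5 ± 54.3 CPM of F3. Of their 72 UMIs, 70 came from fibroblasts and 0 from endothelial nuclei. The 13 NS and 28 COL fibroblasts had 288 ± 255 CPM. NS replicate 1 had 641 CPM from 4 UMIs in 2 nuclei. NS replicate 2 had 32.3 CPM from 1 UMI in 11 nuclei, and the COL mean was 239 ± 16.2 CPM. With such counts fibroblasts are not ordered against astrocytes.

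The genes whose levels went most with each member over the 20 sums of 5 types in 4 libraries were named among 22103 genes by Pearson's r of log2(CPM + 1), a description in which the sums share libraries and depth. For Plat they were Gpt (r = 0.881), Adamts20 (0.881) and Tns2 (0.864), and for Plau Apaf1 (0.967), Tnf (0.956) and Batf (0.955). For Plaur they were Gm14005 (0.962), Casp4 (0.961) and Fcgr2b (0.958), and for Serpine2 Jam2 (0.971), Kctd12b (0.965) and Ramp1 (0.952). For Serpini1 they were Gm42997 (0.943), Plppr3 (0.938) and Arhgef15 (0.931), and those given for F3 were Alpl (0.982) and Fads2 (0.971).

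With all nuclei of a library summed, the urokinase pair rose in COL. Plaur had 0.219 and 0.276 CPM in NS and 2.85 and 3.25 CPM in COL, from 17, 19, 198 and 226 UMIs. Plau had 0.219 and 0.0873 CPM in NS and 0.662 and 2.26 CPM in COL, from 17, 6, 46 and 157 UMIs. For both genes each COL library lay above both NS libraries, and the COL libraries were closer to each other for Plaur than for Plau. The log2 fold change was 3.76 ± 0.36 for Plaur (SE, edgeR adjusted p = 0.00436) and 3.33 ± 0.68 for Plau (adjusted p = 0.0373). Of all 25570 genes tested, 9.45% were called. A gene was tested when it reached a set level in at least 2 libraries (0.144 CPM here), and Plau reached it in both COL libraries and in 1 NS library. Where a gene entered a test through the group in which it was high, the filter chose it in part for the difference, and its call is not counted with those of the other members. F3 had 23.0 and 19.8 CPM in NS and 8.71 and 14.6 CPM in COL and was not called (-0.74 ± 0.21, adjusted p = 0.0702). Plat, Serpine2 and Serpini1 had log2 fold changes of 0.13, -0.33 and -0.15, none called. In such a sum, fewer cells of a type and less RNA per cell cannot be told apart, and the shares of macrophages and astrocytes moved as given above. F3 was negative in all of 9 alternatives and called in 4 of them, with DESeq2 (0.0328), with no filter on low counts (0.00719), with a replicate block (0.0211) and without COL replicate 2 (0.00944). Plain library totals shifted the median of all genes by -0.15, and Plau then lost its call (adjusted p = 0.0542). The log2 fold change of Plau was 2.26 without COL replicate 2 and 4.08 without NS replicate 1.

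**Figure D2:**
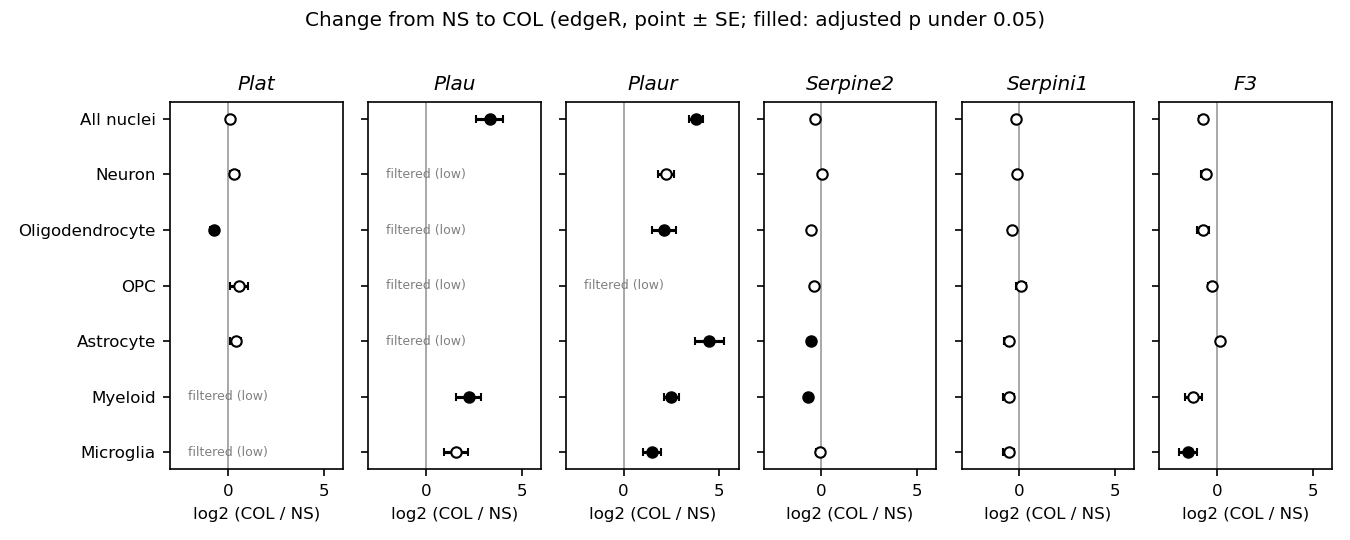
Log2 fold change from NS to COL (x axis) of each member in all nuclei and in each tested cell type (y axis), as the edgeR estimate ± SE over 2 libraries a group, with filled points where the adjusted p was below 0.05. Plaur was called in all nuclei, oligodendrocytes, astrocytes, myeloid nuclei and microglia. In that order, 9.45%, 21.9%, 17.1%, 30.5% and 26.3% of all genes tested were called. Except in all nuclei, Plaur reached the level for testing in both COL libraries and not in both NS libraries. Its calls there are not counted with those of other members. The word filtered marks a gene too low to be tested.

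In the sum of all myeloid nuclei, the receptor and its ligand rose and Serpine2 fell. Plaur had 5.35 and 8.09 CPM in NS and 41.6 and 32.1 CPM in COL, a log2 fold change of 2.49 ± 0.41 (edgeR adjusted p = 0.000525). Plau rose by 2.24 ± 0.67 (adjusted p = 0.0213), and the change of Serpine2 was -0.69 ± 0.18 (adjusted p = 0.0121). Of all 13246 genes tested, 30.5% were called. Plaur and Plau each reached the level for testing (5.44 CPM) in both COL libraries and in 1 NS library. With no filter on low counts the edgeR adjusted p was 3.06e-08 and 0.000148, in a fit that called 4531 of 26885 genes. That fit differs for all genes, so these values do not check the choice made by the filter. The sum was of 316 and 346 nuclei in NS and 618 and 903 in COL. Among them were 9 macrophages and 651 microglia in NS and 601 and 894 in COL, so its change includes the change of make-up. F3 (-1.23, adjusted p = 0.0514) and Serpini1 (-0.54, adjusted p = 0.162) were not called. Plaur was called in 14 of 14 alternatives, Plau lost its call with DESeq2 (0.0664) and without NS replicate 2 (0.156), and Serpine2 without NS replicate 1 (0.219), with adjusted p in parentheses. The log2 fold change of Plau was 1.56 without NS replicate 2 and 3.78 without NS replicate 1, and Plau was too low to be tested without COL replicate 2 and in nuclei thinned to 2000 UMIs. F3 passed the threshold with plain library totals (0.0468) and with a stricter gate (0.0363), 2 of 13 alternatives.

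In microglia alone, Plaur had 5.40 and 8.24 CPM in NS and 16.5 and 20.4 CPM in COL, from 4, 6, 27 and 53 UMIs. The groups did not overlap, and the log2 fold change was 1.48 ± 0.46 (edgeR adjusted p = 0.0316). F3 had 14.9 and 13.7 CPM in NS and 5.50 and 4.24 CPM in COL, from 11, 10, 9 and 11 UMIs (-1.52 ± 0.48, adjusted p = 0.0330). Of all 11806 genes tested, 26.3% were called. Plaur and Plau reached the level for testing (8.41 CPM) in the COL libraries alone and F3 in the NS libraries alone, so no count is drawn from these calls. With no filter the edgeR adjusted p was 0.0130 for Plaur, in a different fit that called 3651 of 25349 genes. Plau had 6.75 and 1.37 CPM in NS and 9.78 and 13.9 CPM in COL and was not called (1.59 ± 0.62, adjusted p = 0.0779). Serpine2 had 211 and 159 CPM in NS and 182 and 155 CPM in COL, groups that overlapped (-0.0926, adjusted p = 0.757). Plau was called with no filter on low counts (0.0379) and with clusters (0.0153), and its log2 fold change was 0.91 without NS replicate 2 and 3.09 without NS replicate 1. The Plaur call was lost with DESeq2 (0.238), without NS replicate 1 (0.208), without NS replicate 2 (0.0886) and without COL replicate 2 (0.160), and the F3 call with DESeq2 (0.257), with no filter on low counts (0.0509), without NS replicate 1 (0.248), without NS replicate 2 (0.215), without COL replicate 1 (0.247) and without COL replicate 2 (0.273), and both genes were too low to be tested in nuclei thinned to 2000 UMIs. By clustering, NS microglia lay mainly in cluster 14 (319 and 338 NS and 4 and 5 COL nuclei) and COL microglia in cluster 12 (1 and 2 NS and 294 and 418 COL nuclei) and cluster 24 (1 and 3 NS and 74 and 126 COL nuclei). The 10 macrophage markers summed to 151 and 185 CPM in NS and 342 and 432 CPM in COL, and the 11 astrocyte markers to 455 and 407 CPM in NS and 207 and 205 CPM in COL. Their part in these changes was not tested.

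In astrocytes, Serpine2 fell and F3 was not called. Serpine2 had 369 and 414 CPM in NS and 264 and 257 CPM in COL (-0.53 ± 0.16, edgeR adjusted p = 0.0420), with both COL libraries below both NS libraries. F3 had 213 and 206 CPM in NS and 209 and 247 CPM in COL, groups that overlapped (0.18 ± 0.16, adjusted p = 0.468). Plaur was called as well (4.47 ± 0.76, edgeR adjusted p = 0.00302), from 1, 1, 8 and 10 UMIs. The ratio of pooled levels was 24.7, with an exact interval of 5.92 to 219.8 that takes UMIs as independent. Of the 18 COL UMIs 14 lay in 5 nuclei, so this interval understates the uncertainty. Plaur reached the level for testing (3.44 CPM) in the COL libraries alone, so its call is not counted with that of Serpine2. With no filter the edgeR adjusted p of Plaur was 4.19e-05, in a different fit that called 3288 of 28189 genes. Of all 14352 genes tested, 17.1% were called. Serpini1 (-0.55, adjusted p = 0.141) and Plat (0.41, adjusted p = 0.370) were not called. The Serpine2 call was lost with DESeq2 (0.103), with RLE scaling (0.0571), without NS replicate 1 (0.0923), without NS replicate 2 (0.433), with clusters (0.0991) and in nuclei thinned to 2000 UMIs (0.0780), with a negative sign throughout. By clustering, NS astrocytes lay mainly in cluster 4 (1163 and 1051 NS and 2 and 3 COL nuclei) and COL astrocytes in cluster 20 (3 and 2 NS and 149 and 219 COL nuclei), so most nuclei compared were in different clusters.

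The Plaur count of COL astrocytes came from few nuclei. Of the 18 UMIs, 14 lay in 5 of 50 nuclei that clustering placed in an unnamed cluster led by Gm26870, Hmga2 and Hspa1a. The 370 COL astrocytes that clustering also put with astrocytes held 4 Plaur UMIs in 4 nuclei. In those 50 nuclei and in the 370, the 10 myeloid markers summed to 352 and 171 CPM and the macrophage markers to 66.8 and 46.8 CPM. Microglia markers summed to 78.0 and 72.8 CPM, those of T and NK cells to 22.3 and 26.1 CPM and astrocyte markers to 3715 and 6491 CPM. Over both groups the unnamed cluster held, by the gate, 68 astrocytes, 105 neurons without a subtype, 100 oligodendrocytes and 163 untyped nuclei. Its identity was not settled, and the part of these markers in the Plaur value was not tested. Plaur was too low to be tested without COL replicate 1, without COL replicate 2, with clusters and in nuclei thinned to 2000 UMIs. With clusters Plat turned to -0.50 (edgeR adjusted p = 0.421). The Plaur call was also lost without NS replicate 1 (0.0670), and DESeq2 gave no adjusted p for it.

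In oligodendrocytes, Plat fell. It had 26.3 and 19.9 CPM in NS and 11.5 and 14.9 CPM in COL, from 212, 234, 115 and 165 UMIs, groups that did not overlap (-0.73 ± 0.21, edgeR adjusted p = 0.0426). Plaur was called from 3, 2, 11 and 12 UMIs (2.11 ± 0.64, adjusted p = 0.0471). Plaur reached the level for testing (0.948 CPM) in the COL libraries alone, so its call is not counted with that of Plat. With no filter the edgeR adjusted p of Plaur was 0.0486, in a different fit that called 5406 of 31587 genes. Of all 17589 genes tested, 21.9% were called. Serpine2 had 39.1 and 38.3 CPM in NS and 22.7 and 28.0 CPM in COL (-0.54 ± 0.18, adjusted p = 0.0594), and F3 had 8.32 and 9.69 CPM against 3.89 and 6.42 CPM (-0.74, adjusted p = 0.117), neither called. Serpini1 was not called (-0.35, adjusted p = 0.159). Of 14 alternatives Plat was called in 6 and negative in all, and its call was lost with DESeq2 (0.0896), with plain library totals (0.0512), without NS replicate 1 (0.283), without NS replicate 2 (0.107), without COL replicate 1 (0.0541), with a stricter gate (0.0513), with clusters (0.0509) and in nuclei thinned to 2000 UMIs (0.162). Plaur was called in 5 of 12, its call was lost with DESeq2 (0.263), with plain library totals (0.0544), without NS replicate 1 (0.169), without NS replicate 2 (0.421), without COL replicate 1 (0.182), without COL replicate 2 (0.122) and with a stricter gate (0.0515), and it was too low to be tested with clusters and in nuclei thinned to 2000 UMIs. Serpine2 gained a call with a replicate block (0.0285), without COL replicate 2 (0.00660), with a stricter gate (0.0489) and in nuclei thinned to 2000 UMIs (0.0443), and F3 without COL replicate 2 (0.00828). By clustering, NS oligodendrocytes lay mainly in cluster 1 (1619 and 2440 NS and 2 and 3 COL nuclei) and cluster 6 (497 and 1072 NS and 0 and 1 COL nuclei), and COL oligodendrocytes in cluster 3 (2 and 7 NS and 1272 and 1106 COL nuclei) and cluster 10 (0 and 2 NS and 350 and 448 COL nuclei).

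In OPCs edgeR called 0 of the 4 tested members, where 15.5% of 12738 genes were called. DESeq2 called 0 as well and 823 of all genes, and by edgeR 1 member, Serpine2, had an unadjusted p under 0.05, as 3894 genes had. Serpine2 had 301 and 302 CPM in NS and 242 and 205 CPM in COL (-0.39 ± 0.15, adjusted p = 0.102), and passed the threshold without COL replicate 1 (-0.53, adjusted p = 0.00598). F3 had 58.1 and 57.8 CPM against 42.1 and 49.7 CPM (-0.28, adjusted p = 0.354). Plaur had 0, 0, 4 and 7 UMIs, too low for the test. With 3 UMIs over the NS group taken as the floor, COL over NS was at least 3.41, a bound that rests on the floor chosen. The counting error of the 11 COL UMIs is not in it. By clustering, NS OPCs lay mainly in cluster 16 (308 and 318 NS and 2 and 9 COL nuclei) and COL OPCs in cluster 13 (92 and 113 NS and 208 and 296 COL nuclei). These are all nuclei of a cluster, and by the gate 77.6% of cluster 13 were OPCs.

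In neurons edgeR called 0 of the 5 tested members. Plaur had 0.151 and 0.163 CPM in NS and 0.655 and 0.663 CPM in COL, from 9, 8, 34 and 31 UMIs, and missed the threshold (2.23 ± 0.42, adjusted p = 0.0963), having reached the level for testing in the COL libraries alone. The test called 0.00833% of 24004 genes, while 6898 genes had an unadjusted p under 0.05 and DESeq2 called 2644, Plaur among them (adjusted p = 0.0390). By edgeR the unadjusted p was under 0.05 for 2 members, Plaur and F3. By clustering, neurons of the groups lay apart in part. Most of NS lay in cluster 0 (2255 and 2717 NS and 10 and 56 COL nuclei) and cluster 5 (1497 and 264 NS and 6 and 167 COL nuclei). The largest COL set lay in cluster 2 (88 and 152 NS and 1031 and 1755 COL nuclei). Other clusters held both groups, such as cluster 7 (298 and 159 NS and 603 and 183 COL nuclei) and cluster 8 (186 and 577 NS and 292 and 112 COL nuclei). Plaur also passed with no filter on low counts (0.00204), with a replicate block (0.0490) and without COL replicate 2 (0.0270, adjusted p in each). Serpini1 had 69.0 and 70.9 CPM in NS and 51.1 and 67.1 CPM in COL (-0.0885 ± 0.14, adjusted p = 0.686). Plat had 7.68 and 6.27 CPM against 8.56 and 7.01 CPM, groups that overlapped (0.34, adjusted p = 0.373). F3 had 7.28 and 5.78 CPM against 3.28 and 4.45 CPM (-0.60, adjusted p = 0.159). Serpine2 stood at 0.0234 and turned to -0.14 with plain library totals, which shifted the median of all neuronal genes by -0.17. In glutamatergic and in GABA neurons edgeR called 0 genes, with 3827 and 5567 at an unadjusted p under 0.05, and DESeq2 called 795 and 1635.

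Markers of other cells differed between the groups in these nuclei. The 10 macrophage markers summed to 3.10 and 5.78 CPM in NS and 46.5 and 64.9 CPM in COL in oligodendrocytes and to 9.73 and 15.1 CPM in NS and 34.3 and 57.7 CPM in COL in astrocytes. In OPCs the sums were 4.71 and 2.89 CPM in NS and 46.1 and 101 CPM in COL, and in neurons 7.93 and 9.05 CPM in NS and 21.7 and 35.6 CPM in COL. In COL nuclei with a Plaur UMI the median number of myeloid and macrophage marker UMIs was 2 in oligodendrocytes, 3 in astrocytes and 3 in neurons, against 1, 1 and 2 without one, and the former were also deeper. The 11 astrocyte markers summed to 350.2 and 305 CPM in NS and 159 and 187 CPM in COL in oligodendrocytes and to 212 and 213 CPM in NS and 144 and 122 CPM in COL in neurons. Their part in the Plaur, Serpine2 and F3 values of these cell types was not tested.

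**Figure D3:**
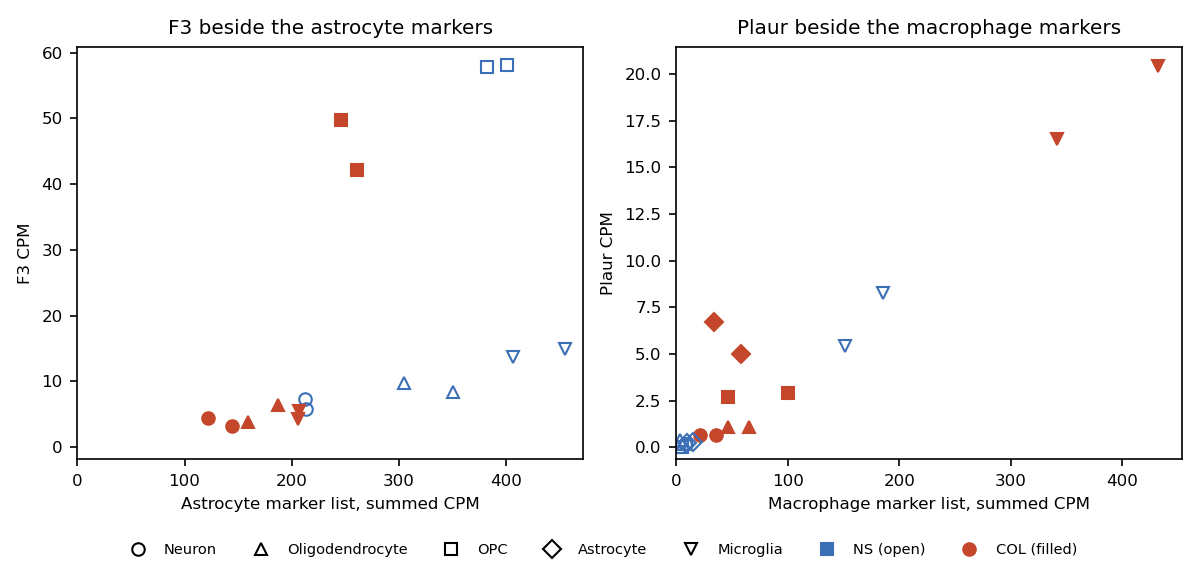
Left, F3 CPM (y axis) against the summed CPM of 11 astrocyte markers (x axis) in 4 cell types other than astrocytes. Right, Plaur CPM against the summed CPM of 10 macrophage markers in 5 cell types, with one point per library and type, open for NS and filled for COL. Within a type, COL points lie at lower astrocyte marker sums and at higher macrophage marker sums than NS points.

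Whether the change from NS to COL differed between cell types was tested as an interaction against neurons, with the library as a block. The change of F3 in astrocytes exceeded that in neurons by 0.78 ± 0.17 on the log2 scale (SE, edgeR adjusted p = 0.00623). The change of Plat in oligodendrocytes was -0.96 ± 0.25 relative to neurons (adjusted p = 0.0120). These were 2 of 24 member-by-type tests called, where 4.03% of genes were called for astrocytes, 8.45% for oligodendrocytes, 1.66% for OPCs and 10.3% for microglia. Serpine2 in astrocytes was not shown to differ from neurons (-0.56 ± 0.16, adjusted p = 0.0509), nor was Plaur (2.45 ± 1.02, adjusted p = 0.209). The F3 call was lost without NS replicate 1 (0.177), without COL replicate 2 (0.0566) and in nuclei thinned to 2000 UMIs (0.309), and the Plat call without NS replicate 1 (0.101), without NS replicate 2 (0.0897), without COL replicate 1 (0.201) and in nuclei thinned to 2000 UMIs (0.102). Serpine2 in oligodendrocytes, not called here (-0.47 ± 0.18, adjusted p = 0.0991), was called without COL replicate 2 (0.0429) and with clusters (0.0410).

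**Figure D4:**
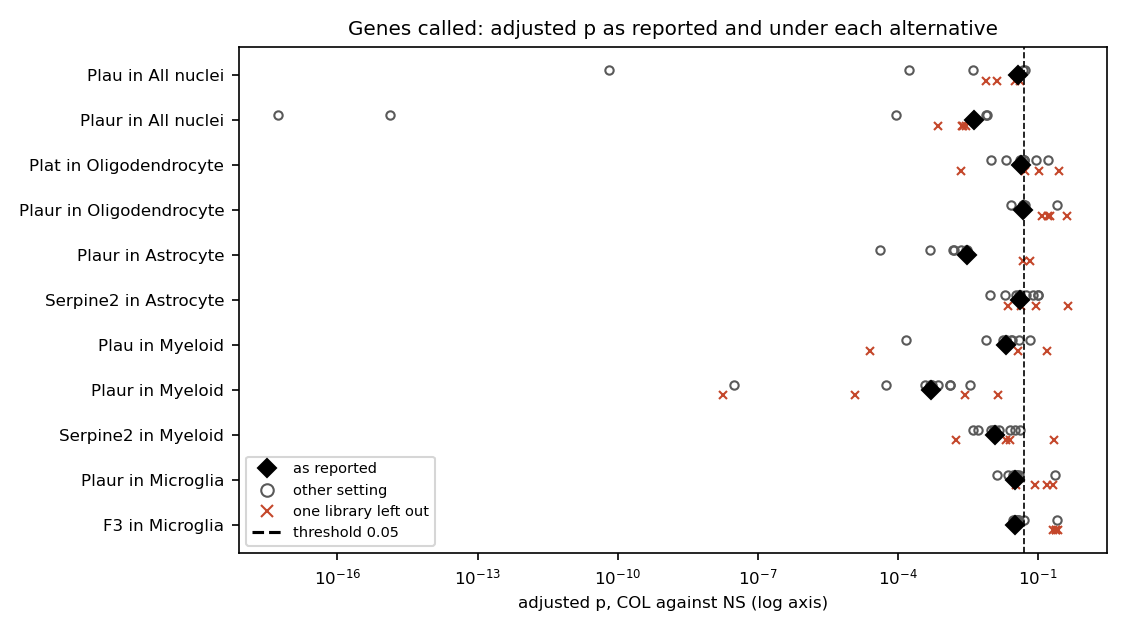
Adjusted p of COL against NS (log x axis) for each gene and cell type called, as reported (diamonds), under other settings (circles) and with 1 library left out (crosses), with the threshold of 0.05 as a dashed line. Plaur in myeloid nuclei and in all nuclei lay below the threshold in every setting drawn. Plau in all nuclei had a circle above it, and every other call drawn had at least 1 cross above it.

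In the vascular nuclei the counts were small and the make-up differed between the groups. Pericytes and smooth muscle numbered 24 and 19 in NS and 8 and 12 in COL, fibroblasts 2 and 11 in NS and 13 and 15 in COL and endothelial nuclei 4 and 10 in NS and 6 and 10 in COL. Plaur had 0 and 0 CPM in NS and 48.5 and 17.8 CPM in COL, from 0, 0, 10 and 5 UMIs. With 3 UMIs over the NS group as the floor, COL over NS was at least 1.60, a bound that rests on the floor chosen. The counting error of the 15 COL UMIs is not in it. The COL level lay above that of microglia in replicate 1 and below it in replicate 2. Of its COL UMIs 10 lay in fibroblasts. Serpini1 had 203 and 144 CPM in NS and 38.8 and 39.1 CPM in COL, from 12, 14, 8 and 11 UMIs. Pericytes and smooth muscle held 18 of these UMIs in NS and 7 in COL, endothelial nuclei 7 and 7, and fibroblasts 1 and 5. Plat had 50.7 and 61.9 CPM against 121 and 39.1 CPM, groups that overlapped. The part of the make-up in these values was not tested.

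Other genes of the plasmin and clotting system were counted from a list of 50. In all nuclei 16 of the 41 tested were called higher in COL and 0 lower, in oligodendrocytes 12 and 1 of 26, and in OPCs 7 and 0 of 18. The counts were 5 and 3 of 20 in astrocytes, 15 and 2 of 25 in myeloid nuclei, 6 and 1 of 20 in microglia, and 0 of 37 in neurons. Of all genes tested, 9.45% were called in all nuclei, 21.9% in oligodendrocytes, 15.5% in OPCs, 17.1% in astrocytes, 30.5% in myeloid nuclei, 26.3% in microglia and 0.00833% in neurons, in either direction. The median log2 fold change of the list genes tested was 0.38 in all nuclei, 0.61 in oligodendrocytes, -0.0340 in OPCs, 0.40 in astrocytes, 1.19 in myeloid nuclei, 0.69 in microglia and 0.40 in neurons. For all genes tested it lay between -0.0207 and 0.0219 in these 7 sets of nuclei, and it was -0.0176 in OPCs. Of the list genes called higher, 3 in all nuclei, 7 in oligodendrocytes, 5 in OPCs, 4 in astrocytes, 11 in myeloid nuclei and 5 in microglia had reached the level for testing in both COL libraries and not in both NS libraries, so the counts and medians describe the genes that passed and support nothing further. F13a1 and Itgam of this list were also gate markers.

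Plg, the gene of plasminogen itself, had 143 UMIs in all, 0.502 ± 0.0778 CPM (SD, n = 4), and was not called in all nuclei (log2 fold change 0.11 ± 0.38, edgeR adjusted p = 0.865). Lrp1, a receptor that takes up activator and inhibitor complexes, had 143 ± 14.7 CPM over all nuclei and 719 and 646 CPM in COL macrophages, and was called in no cell type tested.

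Serpina3n (a serine protease inhibitor raised in reactive glia) and Anxa2 (a surface protein that binds plasminogen and tPA) were called higher in all 4 glial types tested. Most list genes called higher in these types reached the level for testing through the COL libraries, as counted above. The values below describe genes that passed, and they were not repeated without the filter. The log2 fold change of Serpina3n was 5.16 ± 0.33 in oligodendrocytes, 6.08 ± 0.50 in OPCs, 4.08 ± 0.39 in astrocytes and 3.71 ± 0.63 in microglia, with edgeR adjusted p of 0.00121 or smaller. That of Anxa2 was 3.18, 4.15, 3.51 and 3.57 in the same order, with adjusted p of 0.00220 or smaller. Neurons had 3.52 ± 0.39 for Serpina3n and 2.42 ± 0.32 for Anxa2, neither called (edgeR adjusted p = 0.0948 for both). F13a1, the A chain of clotting factor XIII and 1 of the 10 macrophage markers of the gate, was called higher in the nuclei typed as oligodendrocytes (4.59), OPCs (5.33) and microglia (4.22). Pros1 (protein S, an anticoagulant cofactor) rose in oligodendrocytes (3.26 ± 0.23), OPCs (adjusted p = 0.00170) and astrocytes (0.99 ± 0.22). It was lower in the myeloid sum, whose make-up changed (-0.74 ± 0.17, adjusted p = 0.00524), and was not called in microglia (-0.21 ± 0.17, adjusted p = 0.399). Gas6, its relative, rose in microglia (1.68 ± 0.21, adjusted p = 0.000189) and in myeloid nuclei (1.37 ± 0.21). Masp1 rose in oligodendrocytes (1.38), and the integrin chain Itgav in oligodendrocytes (0.79) and OPCs (0.83). Itgb2, a chain of leukocyte integrins, was called higher in nuclei typed as astrocytes (4.18) and oligodendrocytes (2.36) and in the myeloid sum (1.06). It was not called in microglia (0.38 ± 0.25, adjusted p = 0.298). Eno1, an enzyme of glycolysis, changed by -0.79 in astrocytes and -0.92 in oligodendrocytes. F10 (clotting factor X) was called higher in myeloid nuclei (adjusted p = 4.40e-06) and oligodendrocytes (adjusted p = 0.00455), and Igf2r in myeloid nuclei (2.90 ± 0.36, adjusted p = 7.34e-05) and microglia (1.52 ± 0.46). The macrophage marker sums given above were higher in COL in oligodendrocytes, OPCs, astrocytes and microglia, in the last from 151 and 185 to 342 and 432 CPM, and their part in the values of these list genes was not tested.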

How the data were processed

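Nuclei of pooled thalamus were run on a 10x system, and the authors counted UMIs per gene with Cell Ranger 1.2.0 on mm10. The deposited tables hold whole-number counts per gene and nucleus, with 33976 to 35831 genes each. Counting of intron reads and removal of free RNA or doublets are not given in the sources used here, and no doublet caller was run. The filter of the study (over 50 genes, under 5% mitochondrial UMIs) was applied.

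Each nucleus was scored for marker lists (mean log of the scaled count, less the 25th percentile of its library) and typed where at least 3 markers were detected and the lead over the next type was 0.1 or more. The scoring rule was set after the counts were seen. UMIs were summed per library and cell type, where each library had at least 20 nuclei, and tested with edgeR 4.0.16 (quasi-likelihood, TMM, filterByExpr, Benjamini-Hochberg over all genes, threshold 0.05). The edgeR and DESeq2 1.42.0 fits were run on simulated counts with the same spread for every gene. This does not show how they do at the spread of these data. Clusters came from Seurat 5.3.0 without the members (5000 variable genes, 15 components, resolution 0.8). With 2 libraries a group an exact permutation test cannot go below p = 0.333, so none was used.

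The members, lists and tests were chosen with earlier results of these data known. Named were the members, Plg, Lrp1, up to 5 called list genes with the smallest adjusted p per cell type (a choice of these is given), and the 3 genes most like each member with at least 100 UMIs, save items not reported here. The nuclei are not replicates.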

Additional observations from a re-analysis of the deposited data

Results flagged for a closer look

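By the interaction test of edgeR, the change from NS to COL was called different from that in neurons in 2 of 24 member-by-type tests. Of all genes, 4.03% were called for astrocytes, 8.45% for oligodendrocytes, 1.66% for OPCs and 10.3% for microglia. For F3 in astrocytes the difference was 0.775 on the log2 scale (adjusted p = 0.00623), with both COL libraries below both NS libraries in neurons and overlapping groups in astrocytes. For Plat in oligodendrocytes it was -0.962 (adjusted p = 0.0120), with both COL libraries below both NS libraries in oligodendrocytes and overlapping groups in neurons. Within a type, F3 was called neither in astrocytes (edgeR adjusted p = 0.468) nor in neurons (0.159). Both interaction calls were lost in nuclei thinned to 2000 UMIs and in some fits with 1 library left out. Groups of 2 libraries are too small for a test of outlying samples.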

How the results depend on the processing

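Among alternatives for single members, 762 values kept their direction and side of the threshold, 69 lost a call, 23 gained one and 25 changed sign. The cause of these changes was not tested. Plaur kept its call in all nuclei and in myeloid nuclei under every alternative run. The alternatives for the interaction and for pairs of cell types were chosen after seeing the data, and the other list genes were not recomputed. Low counts (Plau and Plaur in glia and neurons) limit what could be tested.

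The number of members called in all nuclei was 1 with plain library totals. In neurons it was 1 with DESeq2, 1 with no filter and 0 to 1 with 1 library left out. In oligodendrocytes it was 0 with DESeq2, plain totals or clusters, 1 with a stricter gate or thinning and 0 to 3 with 1 library left out. In OPCs it was 1 with no filter and 0 to 1 with 1 library left out. In astrocytes it was 0 with DESeq2, clusters or thinning, 1 with RLE scaling and 0 to 1 with 1 library left out. In microglia it was 0 with DESeq2 or thinning and 0 to 1 with 1 library left out. Over all genes these settings called, in oligodendrocytes, 3490 of 17589 genes with plain totals, 3801 of 17137 with clusters, 3770 of 17354 with a stricter gate, 3193 of 14381 thinned and 1336 to 7071 of 18368 with 1 library left out, the last being the setting with 3 members. In astrocytes they called 2010 of 13775 with clusters, 1276 of 11678 thinned, 2653 of 14352 with RLE scaling and 1523 to 3321 with 1 library left out, in OPCs 2820 of 26488 with no filter and 1138 to 2872 with 1 library left out, in microglia 2269 of 9611 thinned and 1332 to 3462 with 1 library left out, and in neurons 0 to 5584 with 1 library left out. These counts include members that reached the filter through the group where they were high, and nothing is read from them. The interaction called 0 after thinning and 0 to 2 with 1 library left out. Of all genes it called 7.6% for oligodendrocytes and 1.9% for astrocytes after thinning, and 2.89 to 8.26% and 1.66 to 2.8% with 1 library left out.

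With a replicate block, 1 member was called in neurons (Plaur, adjusted p = 0.0490), Serpine2 was called in oligodendrocytes (0.0285), F3 was called in all nuclei (0.0211), no other call of a member between COL and NS changed, and genes called went from 2416 to 5563 in all nuclei and from 2 to 1480 in neurons. The samples share only a replicate number (2 pairs, correlation of deviations 0.0608 to 0.171). DESeq2 called 4533 genes in all nuclei, 2900 in oligodendrocytes (edgeR 3847), 823 in OPCs (1973), 1225 in astrocytes (2461), 2436 in myeloid nuclei (4039) and 1589 in microglia (3103). Without the filter 6893 genes were called in all nuclei and 4840 in neurons, and plain totals gave 1213 in all nuclei. An adjusted p without the filter thus comes from a different fit of all genes and does not check the filter. Without COL replicate 2, 5584 were called in neurons.

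Changes of sign were all in values not called. With plain totals Plat in all nuclei was -0.0296 and Serpine2 in neurons -0.14 (-0.14 thinned). With 1 library left out Plat in all nuclei ran from -0.0584 to 0.21, Serpine2 in neurons from -0.14 to 0.21, Serpini1 in OPCs from -0.0536 to 0.29 and Serpine2 in microglia from -0.24 to 0.11 (0.00185 with no filter). With clusters Plat in astrocytes was -0.50, and its astrocyte to OPC difference -0.27. For microglia against oligodendrocytes F3 was 0.28 with plain totals, 0.00958 with a stricter gate, 0.0146 with clusters and -0.28 to 0.27 with 1 library left out, and Serpini1 0.00299 with plain totals. Serpini1 in astrocytes against OPCs was 0.000906 thinned and -0.28 to 0.0250 with 1 library left out, in microglia against OPCs 0.15 with plain totals and -0.21 to 0.0108 with 1 library left out, and in microglia against astrocytes -0.0334 with clusters and -0.0164 thinned.

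The level of Plat in astrocytes was 9.63 CPM with clusters, and thinned levels of Plau were 0.278 CPM in oligodendrocytes and 0.118 CPM in astrocytes. Without thinning the share of nuclei with a UMI was 6.77% for Plat in oligodendrocytes, 2.27% for Plau and 4.21% for Plaur in microglia, 70.2% for Serpine2 and 53.7% for F3 in astrocytes, and 42.9% for Serpini1 in neurons.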
